A study of Mus musculus with 6 samples.

Results

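The RNAs described here are the well-expressed autosomal long intergenic noncoding RNAs (lincRNAs) of neonatal mouse cartilage cells. They were chosen by their summed counts, as every gene of the deposited table with the biotype lincRNA, a chromosome other than X or Y, and at least 1000 counts summed over the 6 libraries, with H19 and Meg3 set aside. The rule found 67 genes among 2353 autosomal lincRNA rows and 43346 genes in all. Levels are therefore given as a description. The difference between genotypes was not used by the rule and was tested.

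The 6 libraries came from epiphyseal chondrocytes, the cartilage cells at the growing ends of bones, of 3 Girk3-null (Girk3-/-) and 3 wild type mice. All 6 mice are labelled male, of C57BL/6 strain and 5 days old, and no other allele or agent is named for either genotype. Girk3 is a subunit of G protein-gated potassium channels and is encoded by Kcnj9, and the labels do not say which part of the gene the null allele lacks or in which cells. The cells were released with collagenase, and polyadenylated RNA was sequenced to ask which transcripts differ without the channel subunit.

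LincRNAs are transcripts with no recognised protein-coding sequence that lie outside protein-coding genes. Some act as RNA, such as those that scaffold bodies in the cell nucleus. Others are known mainly as host transcripts, whose introns or exons are cut to release small nucleolar RNAs (snoRNAs, guides for chemical modification of ribosomal RNA) or microRNAs. Others again are transcribed away from the promoter of a neighbouring protein-coding gene, often with no known function of their own.

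Facts of all 6 libraries bear on each result below. Total counts were 34279516 to 60392837 per library, and the 67 lincRNAs took 0.519% to 0.753% of them. Kcnj9 had 0 counts in all 6 libraries, so the genotype labels could not be checked with it. Counts of Y-linked genes summed to 16088 in Girk3-null replicate 1 and 0 to 7 elsewhere, while Xist had 19 counts there and 67346 to 144825 elsewhere, so 5 libraries did not match their sex label and results are also given without Girk3-null replicate 1. Of the chondrocyte markers, 9 of 10 were in the table and none was at 0, with Col2a1, the main cartilage collagen, at 5.04% to 8.25% of counts in Girk3-null and 3.12% to 5.33% in wild type libraries. Nothing beyond the words biological replicates in the series text describes the origin of the 3 libraries per genotype, so p-values measure the spread between these samples. In such bulk samples, fewer cells of a type and less RNA per cell cannot be told apart.

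Among the 67, 7 lincRNAs hold microRNA genes in the GENCODE M21 annotation and 10 hold snoRNAs or the related scaRNAs. Mir17hg holds 6 microRNA genes with 11 mature microRNAs in RefSeq (GRCm38.p6), the miR-17-92 cluster. Its main products are shown because Mir17hg had the smallest p-value of the 67, and both members of each pair with a shared seed are among them. Capitals mark the seed, bases 2 to 8 from the 5′ end, which pairs with target mRNAs.
mmu-miR-17-5p: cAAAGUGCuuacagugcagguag
mmu-miR-20a-5p: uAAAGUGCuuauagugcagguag
mmu-miR-18a-5p: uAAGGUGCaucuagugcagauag
mmu-miR-19a-3p: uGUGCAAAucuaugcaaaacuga
mmu-miR-19b-3p: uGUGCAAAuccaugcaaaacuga
mmu-miR-92a-3p: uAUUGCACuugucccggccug

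The seed of miR-17-5p is shared with miR-20a-5p, and that of miR-19a-3p with miR-19b-3p, so the 11 mature microRNAs of Mir17hg carry 9 seeds. Mirg, the microRNA-containing gene of an imprinted region on chromosome 12, holds 14 microRNA genes with 26 mature microRNAs and 25 seeds. The other 5 hosts hold 1 whole microRNA gene each, and a product of 3 of them is shown. A430106G13Rik holds miR-181b, 6720427I07Rik holds let-7d and E130102H24Rik holds miR-101a. A430106G13Rik also shares 11 exon bases with Mir181a-1 on the same strand, a microRNA gene that it does not hold whole.
mmu-miR-181b-5p: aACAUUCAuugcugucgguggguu
mmu-let-7d-5p: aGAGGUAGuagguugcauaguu
mmu-miR-101a-3p: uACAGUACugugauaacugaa

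The libraries hold polyadenylated RNA, so the counts are those of the host transcripts and not of the mature microRNAs.

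Snhg1 holds 8 annotated snoRNAs, the most of any of the 67, and Snhg12 holds annotated Snora16a, Snora44, Snora61 and Snord99. Of 19 snoRNA genes inside 7 hosts, 9 had both TGATGA in the first 25 bases and CTGA in the last 25, the C and D boxes of snoRNAs that guide methylation. The sequences below (GENCODE M21, mm10) show those 2 boxes in capitals, for 2 snoRNAs of Snhg1 and for 1 each of Snhg12, Snhg18 and Snhg6.
Gm25855 in Snhg1: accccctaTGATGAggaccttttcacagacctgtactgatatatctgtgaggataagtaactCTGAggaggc
Gm22680 in Snhg1: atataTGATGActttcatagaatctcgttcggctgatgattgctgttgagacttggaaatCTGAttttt
Snord99 in Snhg12: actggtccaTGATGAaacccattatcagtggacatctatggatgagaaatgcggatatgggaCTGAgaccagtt
Snord123 in Snhg18: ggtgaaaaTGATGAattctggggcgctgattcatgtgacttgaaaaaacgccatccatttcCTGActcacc
Snord87 in Snhg6: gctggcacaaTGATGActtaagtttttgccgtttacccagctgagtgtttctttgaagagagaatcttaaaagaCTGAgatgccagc

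A RefSeq promoter window of 300 bases, 250 before to 50 after the start, was matched for 29 of the 67 by a start within 100 bases of the listed one. Their median GC content was 57.3%, against 53.0% for 25748 autosomal genes, and they held a median of 20 CG dinucleotides, against 7. The 25748 were not chosen by their counts, as the 29 were. The part of expression in these differences and in those of the motifs was not tested. On both strands, GGGCGG was present in 69.0% of the 29 and in 36.3% of all windows, TATAAA in 10.3% and 14.2%, CCAAT in 41.4% and 37.8%, and CACGTG in 6.90% and 7.23%. TGACGTCA was present in 3 of the 29, which is 10.3%, and in 1.92% of all windows, CCGGAAGT in 10.3% and 4.08%, and the palindromic NRF1 motif in 10.3% and 6.58%. The window of Snhg1 is shown because it spans the gap between Snhg1 and Slc3a2, a gene 127 bases away on the opposite strand, whose levels are set beside those of Snhg1 below. It is chr19:8723237-8723536 on the + strand (GRCm38.p6), and capitals mark matches to the NRF1 motif, GGGCGG and, read on the other strand, TATAAA.
Snhg1 promoter window: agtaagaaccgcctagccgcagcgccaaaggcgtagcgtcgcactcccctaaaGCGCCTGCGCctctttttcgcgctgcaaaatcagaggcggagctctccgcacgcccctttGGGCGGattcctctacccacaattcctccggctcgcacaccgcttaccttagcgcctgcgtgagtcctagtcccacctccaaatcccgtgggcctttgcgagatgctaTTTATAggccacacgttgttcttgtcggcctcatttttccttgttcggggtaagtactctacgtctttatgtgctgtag

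Hosts of snoRNAs are known in vertebrates for transcripts that begin with a C and a run of pyrimidines, as ribosomal protein mRNAs do. In RefSeq, 1 of 7 snoRNA or scaRNA hosts with a matched start, Snhg7, began with C and a run of at least 5 pyrimidines, against 2.51% of all starts. The first 30 bases of 3 hosts are shown, with the opening run of pyrimidines in capitals.
Snhg7 start: CTCTCggcagccatggcggctctatgtttg
Snhg1 start: CTCatttttccttgttcggggtaagtactc
Snhg12 start: TTTCTCgcttcatccgcggtccctgtctgt

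Levels among the 67 were very unequal. The deposited RPKM (reads scaled to gene length and to the library total) averaged over the 6 libraries ran from 0.576 for Gm20342 to 480.7 for Malat1, with a median of 4.10. Only 11 of the 67 averaged over 10 RPKM, 50 lay between 1 and 10, and 6 were under 1. Malat1 alone took 52.4% of all counts of the 67, Neat1 20.8% and Yam1 6.67%. By mean RPKM the order was Malat1, Yam1 at 231.6, Snhg12 at 73.5, Neat1 at 62.8, Snhg1 at 62.5, Snhg18 at 37.0, Snhg6 at 35.1 and 2410004N09Rik at 30.3. Neat1 and Snhg1 lie within each other's spread over the libraries (SD of 8.37 and 16.4 RPKM), as do Snhg18 and Snhg6 (SD of 4.74 and 7.09 RPKM).

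**Figure D1:**
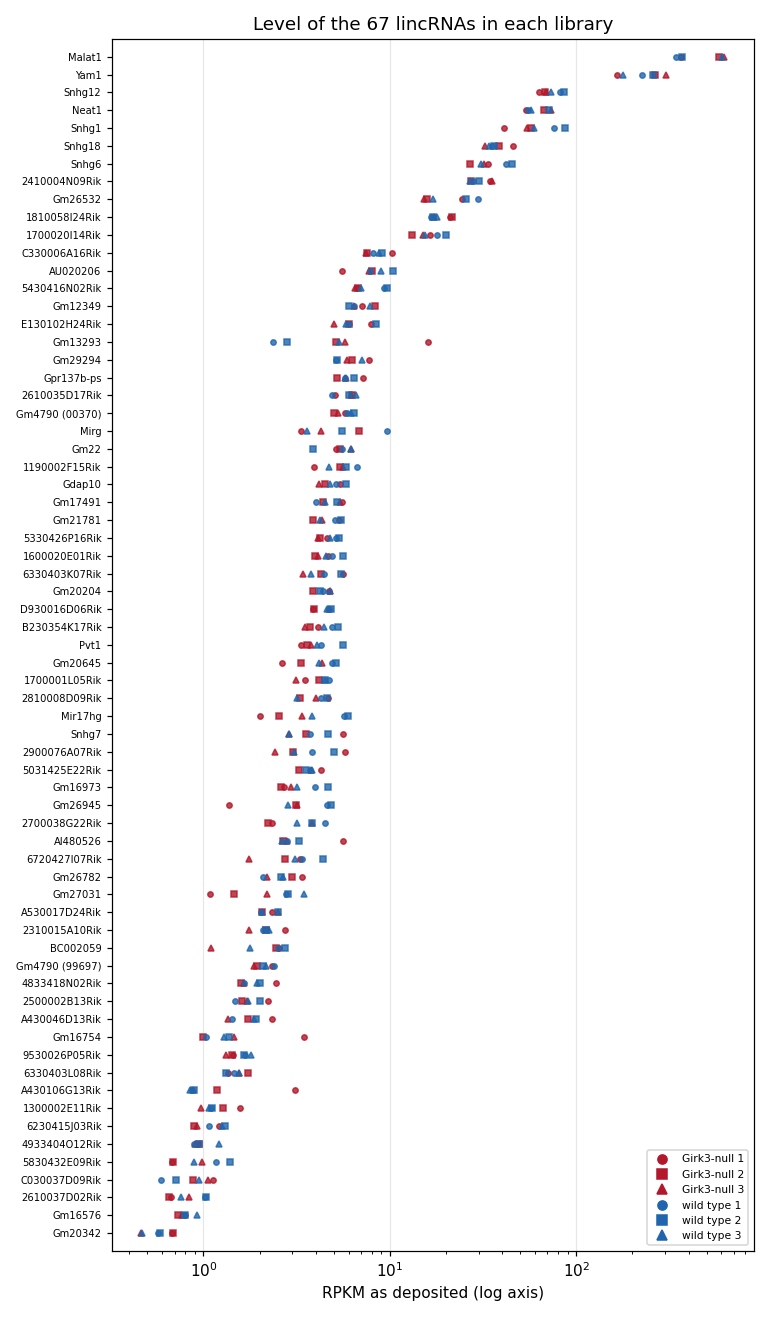
RPKM as deposited (log axis) of each of the 67 lincRNAs, a row each, in the 3 Girk3-null libraries (red) and the 3 wild type libraries (blue), ordered by the mean of the 6. Malat1 averaged 480.7 RPKM and Gm20342 0.576, and in most rows red and blue points intermingle.

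None of the 67 lincRNAs differed between Girk3-null and wild type chondrocytes at an adjusted p under 0.05 in edgeR's quasi-likelihood test, with Benjamini-Hochberg adjustment over 17554 tested genes. All 67 passed the filter on low counts. Of all tested genes, 0.0057% passed that threshold, which is 1 gene. At an unadjusted p under 0.05 there were 9 of the 67, 3 higher and 6 lower in Girk3-null libraries, or 13.4%, against 14.5% of all tested genes (7.49% higher and 7.02% lower). DESeq2 called 1 of the 67, Mir17hg, where it called 2.24% of the genes it gave an adjusted p (1.03% lower), and limma-voom called 0. The members' share was near that of all genes under each of these rules.

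The 67 log2 fold changes, Girk3-null over wild type, had a median of 0.017, against 0.014 for all tested genes, with 34 above and 33 below zero. Below, a log2 difference is this fold change, given ± its standard error. The 67 values ran from -0.85 for Mir17hg to 1.45 for Gm13293. In 12 of the 67 the 3 Girk3-null libraries did not overlap the 3 wild type libraries. Of the 67, the 3 with Girk3-null higher were 1810058I24Rik, 2410004N09Rik and A430106G13Rik, against 9.86% of all genes. The 9 with Girk3-null lower were Mir17hg, Snhg1, Snhg12, Gm27031, Gm16973, B230354K17Rik, 5430416N02Rik, 5330426P16Rik and 9530026P05Rik, against 10.2% of all genes.

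The count at an unadjusted p under 0.05 moved with the library left out, for the 67 and for all genes, but not always by a like share. Without Girk3-null replicate 1, 1 of the 67 was higher and 5 were lower, where 1744 of 17980 genes had such a p. The median log2 fold change was then -0.077 for the 67 and 0.004 for all genes. Without Girk3-null replicate 2, 5 were higher and 2 lower, beside 2413 of 17923 genes, and without Girk3-null replicate 3, 6 were higher and 7 lower, beside 2857 of 17982. Leaving out wild type replicate 1 gave 0 higher and 2 lower, beside 1187 of 17969 genes, and leaving out wild type replicate 2 gave 0 and 2, beside 966 of 17898. Leaving out wild type replicate 3 gave 5 higher and 5 lower, beside 4180 of 18040 genes. The balance of higher and lower among the 67 thus differed with the library left out.

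**Figure D2:**
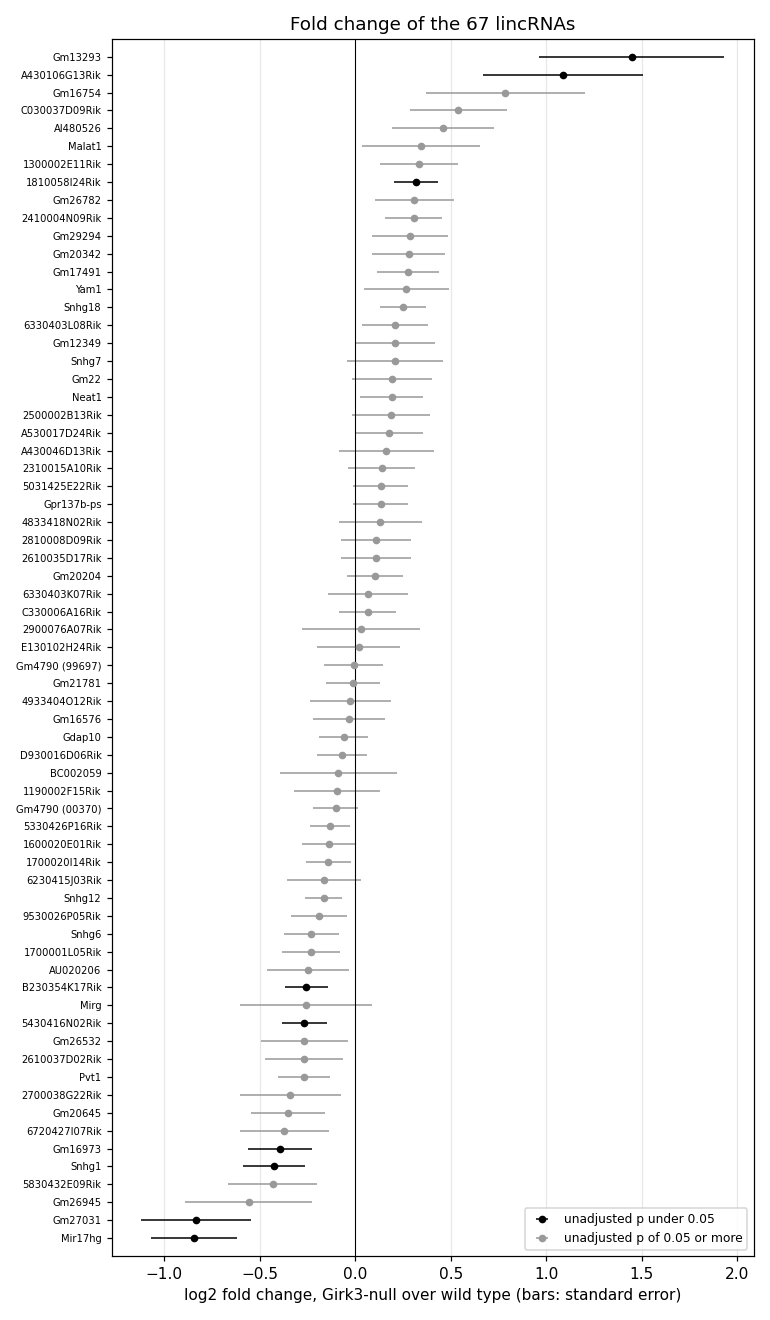
Log2 fold change of each of the 67 lincRNAs, Girk3-null over wild type, with its standard error from edgeR (n = 3 libraries each), black where the unadjusted p is under 0.05. The values run from -0.85 for Mir17hg to 1.45 for Gm13293 around a median of 0.017, and 9 of the 67 are black.

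Malat1 (chr19:5795690-5802672, mm10), an abundant RNA of nuclear speckles, the nuclear bodies that store splicing factors, had the highest level of the 67. It measured 2595, 4173 and 4641 CPM (counts relative to library size, with TMM factors) in Girk3-null libraries 1, 2 and 3, against 2243, 2371 and 4375 CPM in wild type libraries 1, 2 and 3. The groups overlapped, and the 3 high values are Girk3-null replicates 2 and 3 and wild type replicate 3. Those 3 libraries carry numbers above 200 in their titles, while the 3 low ones carry numbers below 200. The labels do not say what the numbers are, and whether they mark a batch was not tested. The log2 difference was 0.34 ± 0.31 (edgeR adjusted p = 0.600). It was 0.09 with a term for title numbers below or above 200 and 0.56 without Girk3-null replicate 1. With that term in the fit, 4 of the 67 were higher and 3 lower at an unadjusted p under 0.05, beside 2227 of 17554 genes.

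Neat1 (chr19:5824708-5845478), the RNA around which paraspeckles form, lies 22036 bases from Malat1. It measured 1143, 1428 and 1613 CPM in Girk3-null and 1073, 1367 and 1226 CPM in wild type libraries. The groups overlapped, and the log2 difference was 0.19 ± 0.17 (edgeR adjusted p = 0.590). Without Girk3-null replicate 1 the log2 fold change was 0.32, and with the term for title numbers it was 0.11.

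None of the 13 genes listed for paraspeckle proteins passed the adjusted threshold in edgeR, and 11 of them had a log2 fold change below zero (median -0.22), with 2 lower at an unadjusted p under 0.05. Those 2 were Matr3, a nuclear matrix protein, at 239, 269 and 269 CPM in Girk3-null against 320, 361 and 281 CPM in wild type libraries, and Nudt21, a subunit of the 3′ end processing factor CFIm, at -0.29 on the log2 scale. Sfpq, an RNA-binding protein needed for paraspeckles, had -0.36 (edgeR adjusted p = 0.355). Of 9 genes listed for nuclear speckle proteins none passed and 7 were below zero (median -0.14), led by the splicing factor Srsf3 at -0.49.

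Yam1 (chr17:39846958-39848788) had the second highest RPKM of the 67. It measured 309.9, 495.1 and 589.5 CPM in Girk3-null and 385, 436 and 338 CPM in wild type libraries. Both the highest and the lowest of the 6 values were Girk3-null libraries, and the log2 difference was 0.27 ± 0.22 (edgeR adjusted p = 0.570). Without Girk3-null replicate 1 the log2 fold change was 0.49, and with the term for title numbers it was 0.14. In GENCODE M21, 99.5% of the exon bases of Yam1 overlap a gene annotated as ribosomal RNA on the other strand. The strand setting of the counting is not given in the sources used here. Reads of Yam1 and of that ribosomal RNA therefore cannot be told apart.

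Of the 10 hosts of snoRNAs or scaRNAs, 5 were among the 8 lincRNAs of highest RPKM, and Snhg1 had the lowest unadjusted p of the hosts. Snhg1 (chr19:8723496-8726442) measured 123, 174 and 172 CPM in Girk3-null and 211, 237 and 180.3 CPM in wild type libraries. The groups did not overlap, although Girk3-null replicate 2 and wild type replicate 3 were close. On the log2 scale the difference was -0.42 ± 0.16, at an unadjusted p of 0.0299 (edgeR adjusted p = 0.308). Without Girk3-null replicate 1 it was -0.27, and with the term for title numbers -0.46. Slc3a2, the heavy chain of amino acid transporters encoded 127 bases away on the opposite strand, measured 447.5, 556 and 615 CPM in Girk3-null and 638, 611 and 570.2 CPM in wild type libraries. Its groups overlapped, with a log2 difference of -0.17 (edgeR adjusted p = 0.573).

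Snhg12 (chr4:132308678-132311024) measured 104, 113 and 119.8 CPM in Girk3-null and 125, 129 and 123 CPM in wild type libraries. The groups did not overlap, but the log2 fold change was small, -0.16 ± 0.10 (edgeR adjusted p = 0.430). Snhg6 (chr1:9941959-9944118) measured 39.4, 31.6 and 39.4 CPM in Girk3-null and 44.99, 48.3 and 36.2 CPM in wild type libraries. Its groups overlapped through wild type replicate 3, with a log2 fold change of -0.23. In M21, 127 exon bases of Snhg6, 11.1% of its own, are shared with Mcmdc2 on the other strand.

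Snhg18 and 2410004N09Rik went the other way. Snhg18 (chr15:32240569-32244662), the host of Snord123, measured 69.2, 58.5 and 51.4 CPM in Girk3-null and 49.0, 49.7 and 51.9 CPM in wild type libraries, a log2 difference of 0.25 (edgeR adjusted p = 0.371). Girk3-null replicate 3 lay below wild type replicate 3, so the groups overlapped, and without Girk3-null replicate 1 the log2 fold change was 0.13. 2410004N09Rik, listed in RefSeq as Epb41l4aos, measured 15.1, 12.1 and 16.3 CPM in Girk3-null and 11.3, 11.99 and 11.9 CPM in wild type libraries. All 3 Girk3-null values were higher, the lowest by little, and the log2 difference was 0.31 (edgeR adjusted p = 0.368). Snhg7 measured 14.04, 9.03 and 7.61 CPM in Girk3-null and 8.58, 10.7 and 7.34 CPM in wild type libraries, with the highest value in Girk3-null replicate 1. Its log2 fold change was 0.21 with that library and -0.09 without it.

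The other hosts of snoRNAs or scaRNAs among the 67 were lower in RPKM than Snhg1, Snhg6, Snhg12 and Snhg18. 2700038G22Rik, the host of Snord93, had a log2 fold change of -0.34, and -0.21 without Girk3-null replicate 1. For 2900076A07Rik it was 0.03, and -0.41 without that library, and for 2810008D09Rik it was 0.11. Gm26945, which overlaps the imprinted Rian gene on the same strand in M21, measured 2.82, 6.49 and 6.86 CPM in Girk3-null and 8.66, 9.05 and 5.93 CPM in wild type libraries. Girk3-null replicate 1 was the lowest, and the groups overlapped. The log2 fold change was -0.56, against -0.24 without Girk3-null replicate 1 and -0.74 with the term for title numbers.

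Of 22 symbols listed as snoRNA hosts of any biotype, 13 were found under that symbol and tested, 5 of them members. None of the 13 passed in edgeR, 5 were above and 8 below zero (median -0.14), and Snhg1 was the only 1 with an unadjusted p under 0.05. Epb41l4aos and Snhg20, listed but not found under those symbols, are the members 2410004N09Rik and 2810008D09Rik, at 0.31 and 0.11. Gas5, which the table calls a processed transcript and which is thus no member, was more abundant than any of the member hosts at 144 RPKM, with a log2 fold change of -0.03. Of 10 genes for the core proteins of snoRNA particles none passed, all 10 had a log2 fold change below zero (median -0.17), and 3 had an unadjusted p under 0.05. The 3 were Nop58 at -0.62, Nop56 at -0.47, both box C/D core proteins, and Nolc1 at -0.37, a nucleolar assembly factor. In all 3 the groups overlapped through wild type replicate 3, and Girk3-null replicate 1 was the lowest library. Nop58, for example, measured 53.7, 98.4 and 96.8 CPM in Girk3-null and 135, 155 and 90.7 CPM in wild type libraries.

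Mir17hg (chr14:115042879-115046727), the primary transcript of the miR-17-92 cluster, had the lowest log2 fold change and the smallest p-value of the 67. Loss of one copy of the human gene causes Feingold syndrome, which includes short stature and short digits. It measured 7.26, 9.26 and 12.7 CPM in Girk3-null libraries, from 430, 404 and 408 counts, against 18.8, 19.5 and 13.98 CPM in wild type libraries, from 889, 1062 and 573 counts. The groups did not overlap, and Girk3-null replicate 3 and wild type replicate 3 were the closest. On the log2 scale the difference was -0.85 ± 0.23, at an unadjusted p of 0.00504 (edgeR adjusted p = 0.291). DESeq2 gave -0.85 with an adjusted p of 0.0318, and over all alternatives the adjusted p ran from 0.0318 to 0.814. Without Girk3-null replicate 1 the log2 fold change was -0.67, and with the term for title numbers -0.88.

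Several marker lists had lower sums in the Girk3-null libraries, as Mir17hg had a lower level. Of all 17554 tested genes, 9098 had a log2 fold change above and 8456 below zero. At an unadjusted p under 0.05, 7.49% of them were higher and 7.02% lower. For dividing cells, all 8 of the listed markers had a log2 fold change below zero (median -0.97) and an unadjusted p under 0.05, none passed the adjusted threshold in edgeR, and none was at 0. Their summed level was 138 to 172 CPM in Girk3-null and 219 to 392 CPM in wild type libraries. Markers of endothelial cells, 8 of 8 below zero, summed to 22.5 to 83.3 CPM in Girk3-null and 106 to 185 CPM in wild type libraries, and none was at 0. Skeletal muscle markers, 7 of 8 below zero at an unadjusted p under 0.05, summed to 10.6 to 24.6 CPM in Girk3-null and 26.4 to 62.7 CPM in wild type libraries, and none was at 0. In these 3 lists, wild type replicate 3 was the wild type library nearest to the Girk3-null ones, as it was for Mir17hg and Snhg1. Erythroid markers were below zero in 8 of 8, with sums of 55.8 to 159 CPM in Girk3-null and 78.3 to 276 CPM in wild type libraries, and Schwann cell markers in 5 of 5, with 41.2 to 76.8 CPM and 56.1 to 295 CPM, so that both lists overlapped between genotypes. Chondrocyte markers went the other way, with 8 of 9 above zero and 5 of them higher at an unadjusted p under 0.05, and their sums of 66179 to 107856 CPM in Girk3-null and 42106 to 73079 CPM in wild type libraries overlapped. None of the genes in these lists passed the adjusted threshold in edgeR, and none was at 0. The part of these lists in the levels of Mir17hg and Snhg1 was not tested.

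Mirg (chr12:109729764-109749460) measured 24.7, 51.0 and 33.3 CPM in Girk3-null and 65.9, 37.6 and 26.9 CPM in wild type libraries. The groups overlapped widely, and the log2 difference was -0.26 ± 0.35, or -0.04 without Girk3-null replicate 1. 6720427I07Rik, the host of let-7d, measured 7.71, 6.44 and 4.33 CPM in Girk3-null and 7.30, 9.34 and 7.34 CPM in wild type libraries, a log2 difference of -0.37 (edgeR adjusted p = 0.456), or -0.56 without Girk3-null replicate 1. E130102H24Rik, the host of miR-101a, had 0.02.

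Of 16 symbols listed as microRNA hosts of any biotype, 10 were tested, 2 of them members. None passed in edgeR, 5 were above and 5 below zero, and 2 had an unadjusted p under 0.05. These were Mir17hg and Mir99ahg, the host of miR-99a and let-7c, which had a log2 fold change of 0.41. Of 10 genes of microRNA processing none passed and none had an unadjusted p under 0.05, with 5 above and 5 below zero. Dgcr8, the partner of the nuclear microRNA-processing enzyme Drosha, had -0.19, and Xpo5, the exporter of microRNA precursors, had -0.19.

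A430106G13Rik (chr1:137966531-137969918), the host of miR-181b, had the second largest log2 fold change of the 67. It measured 10.7, 4.13 and 3.18 CPM in Girk3-null and 2.77, 2.80 and 2.98 CPM in wild type libraries. The groups did not overlap, but Girk3-null replicate 1 stood far above the other 5 libraries. On the log2 scale the difference was 1.09 ± 0.42, at an unadjusted p of 0.0301 (edgeR adjusted p = 0.308), and it was 0.36 without that library.

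Gm13293 (chr2:11339488-11344111) had the largest log2 fold change of the 67. It measured 26.5, 8.57 and 9.94 CPM in Girk3-null and 3.60, 4.19 and 8.83 CPM in wild type libraries. Wild type replicate 3 lay just above Girk3-null replicate 2, so the groups overlapped, and Girk3-null replicate 1 was again the highest. On the log2 scale the difference was 1.45 ± 0.49, at an unadjusted p of 0.0165 (edgeR adjusted p = 0.291), and it was 0.75 without Girk3-null replicate 1. Prkcq, the nearest protein-coding gene 38266 bases away, was near the detection limit at 0 to 0.692 CPM in Girk3-null and 0.488 to 0.938 CPM in wild type libraries.

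2 others were high in Girk3-null replicate 1 alone. Gm16754, which shares 510 exon bases with Keap1 on the other strand in M21, measured 9.25, 2.68 and 4.08 CPM in Girk3-null and 2.54, 3.31 and 3.49 CPM in wild type libraries. Its log2 fold change was 0.79 with all libraries and 0.12 without Girk3-null replicate 1. AI480526, 527 bases from Setd1b, measured 27.1, 12.9 and 14.2 CPM in Girk3-null and 12.4, 14.3 and 12.8 CPM in wild type libraries, with 0.46 and 0.04.

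Girk3-null replicate 1 was the highest of the 6 libraries for 25 of the 67, or 37.3%, against 27.8% of all tested genes. The share was 32.1% of autosomal protein-coding genes with at least 1000 counts and 31.3% of the other tested autosomal lincRNAs. Girk3-null replicate 1 was also the library with the highest sum of osteoblast markers, which had 12141 to 23678 CPM in Girk3-null and 10196 to 13194 CPM in wild type libraries, with 7 of 8 markers above zero and none at 0. Spp1, the bone matrix protein osteopontin, made up 20951 CPM of its sum, against 9029 and 9581 CPM in the other Girk3-null libraries. Col1a1, the main bone collagen, and Dmp1, an osteocyte matrix protein, were lowest there among the Girk3-null libraries, while the other 6 markers were highest there of the 6 libraries. Of the 8, 4 were higher and 1 was lower at an unadjusted p under 0.05 (of all tested genes, 7.49% and 7.02%), and none passed in edgeR. Their part in the levels of A430106G13Rik, Gm13293, Gm16754 and AI480526 was not tested. Wild type replicate 2 was the highest for 17 of the 67, or 25.4%, against 21.2% of all tested genes. It was so for 22.3% of those protein-coding genes and 12.1% of those other lincRNAs.

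**Figure D3:**
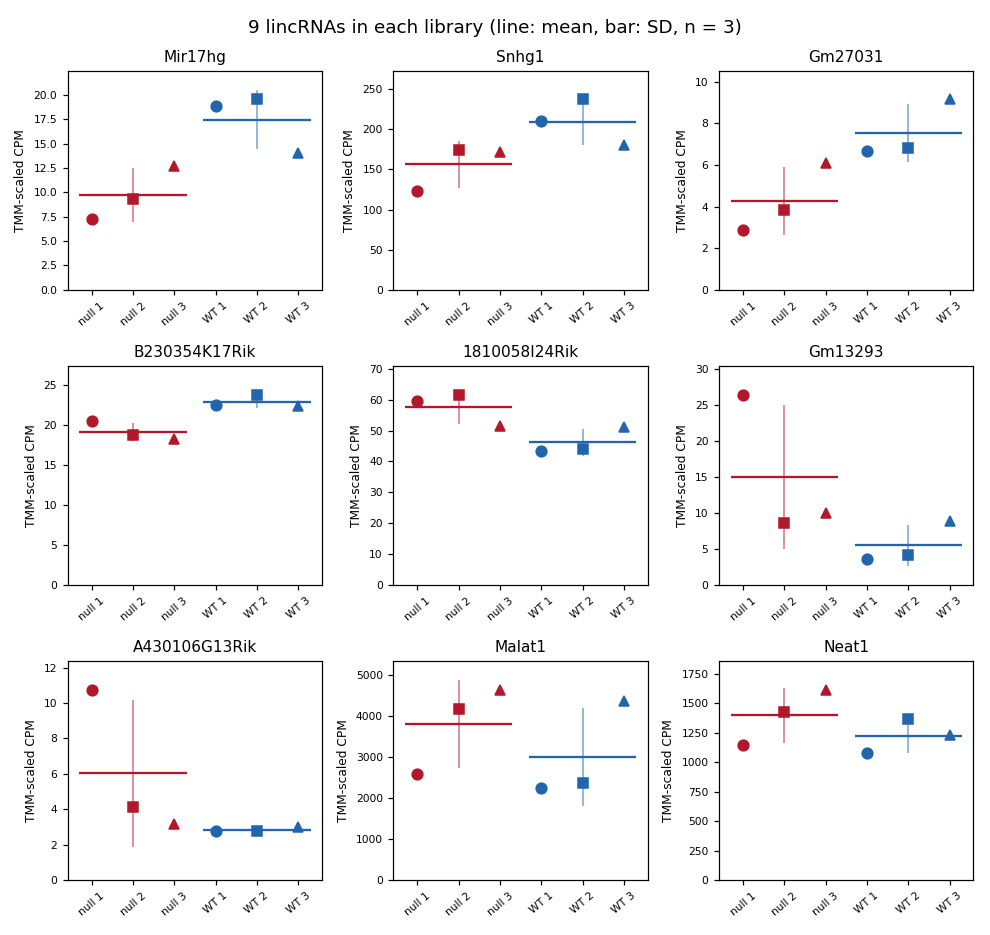
TMM-scaled CPM of 9 lincRNAs in each library, the 3 Girk3-null libraries (red) left of the 3 wild type libraries (blue), with the mean as a line and the SD as a bar (n = 3 each). Mir17hg measures 7.26 to 12.7 CPM in Girk3-null and 13.98 to 19.5 CPM in wild type libraries, and A430106G13Rik and Gm13293 are highest in Girk3-null replicate 1.

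Many of the 67 lie beside a protein-coding gene. In the table's coordinates 41 of them were within 5000 bases of one, 28 of these on the opposite strand, and the median gap was 3352 bases. The nearest protein-coding gene was tested for 62, and no such neighbour passed in edgeR. Member and neighbour had the same sign of log2 fold change in 45 of the 62, a share that was not tested. No such share was computed for other adjacent genes. The 62 have 59 distinct neighbours, and 11 of the 67 overlap their nearest one, so the pairs are not all independent. In 3 pairs member and neighbour both had an unadjusted p under 0.05.

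Gm27031 (chr13:95954594-95957171) was 1 of these 3. It measured 2.85, 3.85 and 6.08 CPM in Girk3-null and 6.67, 6.82 and 9.15 CPM in wild type libraries. The groups did not overlap, and Girk3-null replicate 1 was the lowest. On the log2 scale the difference was -0.83 ± 0.29, at an unadjusted p of 0.0181 (edgeR adjusted p = 0.292), and leaving out Girk3-null replicate 1 gave -0.61, while the term for title numbers gave -1.06. Over all alternatives it ran from -1.17 to -0.61. Sv2c, a synaptic vesicle glycoprotein gene, lies 2272 bases away in the table and measured 2.62, 5.25 and 7.73 CPM in Girk3-null and 9.04, 9.27 and 11.9 CPM in wild type libraries, a log2 fold change of -0.96. In M21 the Sv2c gene covers the position of Gm27031, so a read there can belong to either.

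B230354K17Rik (chr17:45433852-45442544) starts 145 bases from Cdc5l, a spliceosome component gene on the opposite strand. It measured 20.4, 18.7 and 18.3 CPM in Girk3-null and 22.4, 23.8 and 22.4 CPM in wild type libraries. The groups did not overlap and the difference was small, at -0.26 ± 0.11 on the log2 scale (edgeR adjusted p = 0.343). Cdc5l measured 64.5, 72.6 and 68.0 CPM in Girk3-null and 81.2, 88.6 and 73.3 CPM in wild type libraries, and its log2 fold change was -0.25.

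1810058I24Rik (chr6:35252654-35263496), the third of the pairs, measured 59.5, 61.7 and 51.3 CPM in Girk3-null and 43.4, 43.9 and 51.2 CPM in wild type libraries. Girk3-null replicate 3 and wild type replicate 3 were nearly equal. On the log2 scale the difference was 0.32 ± 0.12, at an unadjusted p of 0.0245 (edgeR adjusted p = 0.301), and it was 0.29 without Girk3-null replicate 1. Its neighbour Slc13a4, a sulfate transporter gene 4461 bases away, was low, at 0.810, 0.848 and 0.966 CPM in Girk3-null and 0.169, 0.368 and 0.659 CPM in wild type libraries.

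The other members of smallest p-value had adjusted p-values above 0.3 in edgeR. 5430416N02Rik measured 25.1, 25.6 and 25.7 CPM in Girk3-null and 32.3, 32.8 and 26.8 CPM in wild type libraries, a log2 difference of -0.27 (edgeR adjusted p = 0.344). Gm16973, which shares 384 exon bases with Mphosph8 on the other strand in M21, measured 6.67, 6.49 and 7.67 CPM in Girk3-null and 8.999, 10.4 and 7.88 CPM in wild type libraries, with -0.39. In both genes the groups did not overlap, and wild type replicate 3 was the wild type library nearest to the Girk3-null ones. 5830432E09Rik, which overlaps Ptpre on the other strand, had -0.43 with overlapping groups, and C030037D09Rik, 132 bases from the RNA-binding protein gene Msi2, had 0.54 with overlapping groups and 0.21 to 0.81 over the alternatives.

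Pvt1 (chr15:62037986-62378096), 47612 bases from the growth regulator gene Myc, measured 23.8, 25.7 and 28.2 CPM in Girk3-null and 27.9, 36.3 and 29.4 CPM in wild type libraries. Girk3-null replicate 3 lay just above wild type replicate 1, and the log2 difference was -0.27 ± 0.14 (edgeR adjusted p = 0.377). Myc measured 35.9, 67.8 and 81.0 CPM in Girk3-null and 72.9, 83.6 and 75.8 CPM in wild type libraries, with -0.33.

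1700020I14Rik, listed in RefSeq as Oip5os1 and known as Cyrano, an RNA that directs the destruction of miR-7 in mice, had 139, 112 and 134 CPM in Girk3-null and 139, 154 and 132 CPM in wild type libraries. The groups overlapped, and the log2 difference was -0.14 ± 0.12. 1190002F15Rik, listed as Lockd, lies near the cell cycle inhibitor gene Cdkn1b and had -0.09. 5330426P16Rik, listed as Dubr and known in mice for a role in muscle cell differentiation, varied least over the libraries. It measured 22.0, 20.3 and 20.6 CPM in Girk3-null and 22.7, 23.2 and 23.1 CPM in wild type libraries, with -0.13 (edgeR adjusted p = 0.559).

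Of the further lists of noncoding RNAs and pathways given here none had a gene past the adjusted threshold in edgeR. Among 6 nuclear scaffold RNAs, Malat1 and Neat1 included, Tug1 alone had an unadjusted p under 0.05, at -0.40. Of 5 imprinted RNAs, Mirg included, 2 were above and 3 below zero. The 6 RNAs listed for limb development that were found under the listed symbol and tested were above zero, led by Pantr1 at 0.64. Lockd, also on that list, is the member 1190002F15Rik, which had -0.09. A further list had 2 tested RNAs, Pvt1 at -0.27 and Lincpint at -0.71, and Lincpint had an unadjusted p of 0.0428 in edgeR. Of 8 targets of p53 6 were above zero, led by Gdf15 at 0.96, but the median of the 8 was 0.05. At an unadjusted p under 0.05, 2 were higher, and Sesn2 at -0.18 and Eda2r at -0.36 were below zero. Of all 17554 tested genes, 9098 were above zero, and 7.49% were higher at an unadjusted p under 0.05.

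The spread between replicates of the 67 was close to that of all tested genes, which include genes of lower counts. It was larger than that of autosomal protein-coding genes over the same count threshold. The biological coefficient of variation per gene had a median of 0.188 for the 67, against 0.183 for all tested genes, 0.148 for the 10896 autosomal protein-coding genes with at least 1000 counts, and 0.309 for the other 313 tested autosomal lincRNAs. It ran from 0.107 for Snhg12 to 0.407 for Gm13293. The SD of log2 CPM over the 6 libraries was highest for Gm13293 at 1.02, A430106G13Rik at 0.75, Gm16754 at 0.67, Gm27031 at 0.61 and Gm26945 at 0.60.

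**Figure D4:**
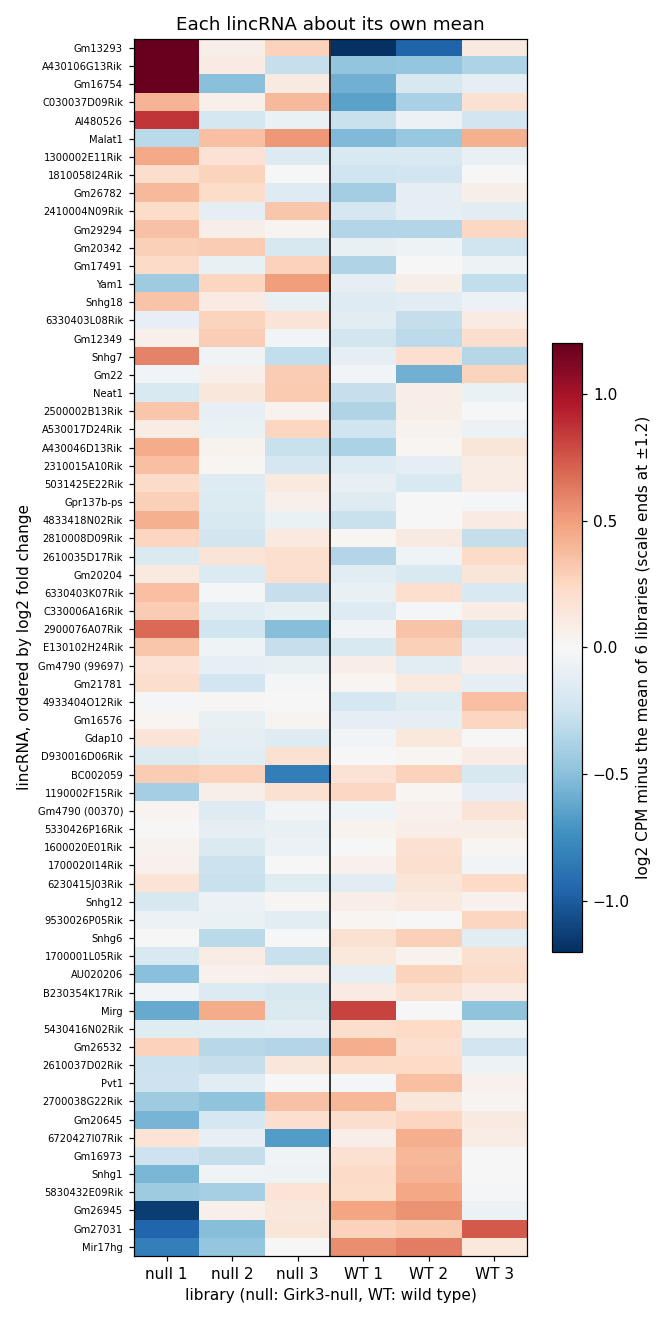
Log2 CPM of each of the 67 lincRNAs (rows, ordered by log2 fold change) minus its own mean over the 6 libraries, with the 3 Girk3-null libraries left of the 3 wild type libraries and colours ending at ±1.2. Girk3-null replicate 1 is the highest library in 25 rows and wild type replicate 2 in 17, and most rows are pale.

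The threshold of 1000 counts split a continuous range. Just inside it were A430046D13Rik with 1005 counts, 1190002F15Rik with 1031, C030037D09Rik with 1035 and 4933404O12Rik with 1100. Just outside were Gm26572 with 962, Cep83os with 932, Gm21807 with 921 and Miat with 912.

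The class itself depends on the annotation. Of the 67 identifiers 58 are in GENCODE M21, and 44 of these are lincRNAs there. The other 14 have another biotype, 6 of them antisense, and 6330403K07Rik is protein-coding. The bodies of 17 members overlap a protein-coding gene of M21, 9 of them on the opposite strand, and 9 share exon bases with one, so their counts can hold reads of the other gene. Gm4790 is the name of 2 adjacent rows on chromosome 7, with log2 fold changes of -0.10 and -0.01, and 6230415J03Rik, 1116 bases on, had -0.16. The 3 cover the position of 1 lincRNA gene in M21 and are not independent.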

How the data were processed

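Polyadenylated RNA of 3 Girk3-null and 3 wild type samples was sequenced, per the labels' protocols. The authors deposited raw gene counts and RPKM (counts scaled by gene length and library total) in 1 table, per the file headers. The submitters' processing notes name bcl2fastq 2.19.0, STAR 2.5.2b and the build mm10. The counting tool, annotation and strand setting were not given in the sources used here. Groups follow the genotype label. Deposited RPKM were used for levels between genes.

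The counts of all genes were tested with edgeR 4.0.16 in R 4.3.3 (quasi-likelihood F-test, genotype alone, TMM factors, filterByExpr at its minimum of 10 counts and total of 15), which kept 17554 genes with 99.9% of counts. Benjamini-Hochberg adjustment ran over all of them, with a threshold of 0.05. A log2 fold change sets Girk3-null over wild type, and its standard error is its size over the square root of F. Alternatives used DESeq2 1.42.0, limma 3.58.1, other scalings and filters, log2(RPKM + 0.1) and log2(RPKM + 1), a term for title number below or above 200, and each library left out. The edgeR fit was tested on simulated data with known changes. Replicates differed beyond sampling noise (chi-square per degree of freedom 24.3 to 127). Positions are those of the table (mm10, counted from 1), and sequences come from RefSeq GRCm38.p6 or GENCODE M21.

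The members and lists were chosen with earlier results of these data known. Genes were named by a rule: the 8 of highest mean RPKM, the 8 of smallest p per direction, those in a list of known noncoding RNAs, the 4 nearest each side of the count threshold, the 5 of largest SD, and the neighbours of those of smallest p. Other genes named (for example 5330426P16Rik and 1700020I14Rik) were chosen after their values were seen. A few results on other listed genes are not reported here.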

Additional observations from a re-analysis of the deposited data

How the results depend on the processing

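No paired analysis was possible because the labels give the 2 genotypes no shared replicate numbers. The count of the 67 lincRNAs with an adjusted p under 0.05 was 0 in edgeR and 1 in DESeq2 (Mir17hg, log2 fold change -0.85), and 0 under the other alternatives and with any 1 library left out. The count at an unadjusted p under 0.05 was 9, against 7 to 11 under the other alternatives and 2 to 13 with 1 library left out, with 2 without wild type replicate 1 and 2 without wild type replicate 2. Over all tested genes it was 2548, against 2227 to 3286 and 966 to 4180. The median log2 fold change was 0.017, against -0.092 with library size only and -0.10 with log2(RPKM + 0.1), where the median of all genes shifted by -0.107 and -0.106. For the 67 it was -0.077 to 0.061 with 1 library left out. The lowest was without Girk3-null replicate 1, where the median of all genes was 0.004, and the cause was not tested. For the 8 members of smallest p in each direction, 224 values over 14 alternatives kept their direction but not their size. These members were chosen by p in the same libraries that the alternatives refit, so a kept direction is no independent check. Without Girk3-null replicate 1, Gm16754 had 0.12 in place of 0.79 and AI480526 0.04 in place of 0.46. A minimum of 500 counts gave 107 lincRNAs with 11 at an unadjusted p under 0.05, and a minimum of 2000 gave 43 with 7, with 0 adjusted calls in either. The lowest count of any of the 67 in a library was 74.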
